A study of Homo sapiens with 4 samples.

Results

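The TGF-beta and BMP family comprises secreted ligands, the receptors that bind them and the SMAD proteins that carry their signal to the nucleus. The 54 protein-coding genes described here were taken by a rule on gene symbols from the 19951 protein-coding genes of GENCODE release 29. They are TGFB1 to TGFB3 and their receptors, the BMP, GDF, inhibin and activin ligands, NODAL, the BMP and activin receptors, the SMADs, and the secreted antagonists LEFTY1, LEFTY2, NOG and FST. HepG2 and Huh7, established human liver cell lines labelled as hepatocellular carcinoma, were sequenced before (group A, HepG2; group C, Huh7) and after (group B, HepG2; group D, Huh7) sonodynamic therapy (SDT). In SDT, ultrasound activates a sensitizer; groups B and D received targeted nanobubbles that carried the sensitizer HMME and the drug lonidamine (LND), with low-frequency ultrasound. Groups A and C received neither, so the effects of nanobubbles, drugs and ultrasound cannot be told apart. The time between treatment and RNA isolation is not given in the sources used here.

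Each group had 1 library of rRNA-depleted total RNA, so no difference has a replicate check and no test was made. The 4 tables used here hold no expression levels, no depth and no direction of change. They name, for each comparison (B vs. A in HepG2, D vs. C in Huh7), the genes that the authors had called differentially expressed at an adjusted p-value under 0.05, sorted by Gene Ontology (GO) term and by KEGG pathway. A gene is called listed here when its identifier stands under any GO term of a comparison. A gene that is not listed may have been unchanged, too low to be called, or without a GO annotation, and these cases cannot be told apart. A listed gene may itself have been close to undetected in both groups, as were some lncRNAs that the paper called. With no levels given, the cell line labels could not be compared with marker genes.

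In this pathway a ligand dimer brings together type II and type I receptors, which are serine/threonine kinases. The type II receptor phosphorylates the type I receptor, and the type I receptor phosphorylates the receptor-regulated SMADs. TGF-beta, activin and nodal act mostly through SMAD2 and SMAD3, and BMPs mostly through SMAD1, SMAD5 and SMAD9. These join the common SMAD, SMAD4, and regulate genes in the nucleus. Among the induced genes are SMAD6 and SMAD7, which block the receptors in a feedback loop. In the liver, TGF-beta restrains hepatocyte growth and drives fibrosis, and BMP6 controls hepcidin, the hormone of iron balance.

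In HepG2 19 of the 54 family genes were listed (35.2%), against 23.9% of all protein-coding genes. In Huh7 22 were listed (40.7%), against 21.9% of all protein-coding genes. Of the family genes, 12 were listed in both cell lines, 7 in HepG2 only, 10 in Huh7 only and 25 in neither. Listing in both held for 22.2% of the family, against 11.4% of all protein-coding genes. Listing in at least 1 cell line held for 29 family genes (53.7%), against 34.3% of all protein-coding genes. The 12 shared genes made up 63.2% of the HepG2 members and 54.5% of the Huh7 members. Among all protein-coding genes, those listed in both made up 47.7% and 52.2% of the respective lists. None of these differences was tested.

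**Figure D1:**
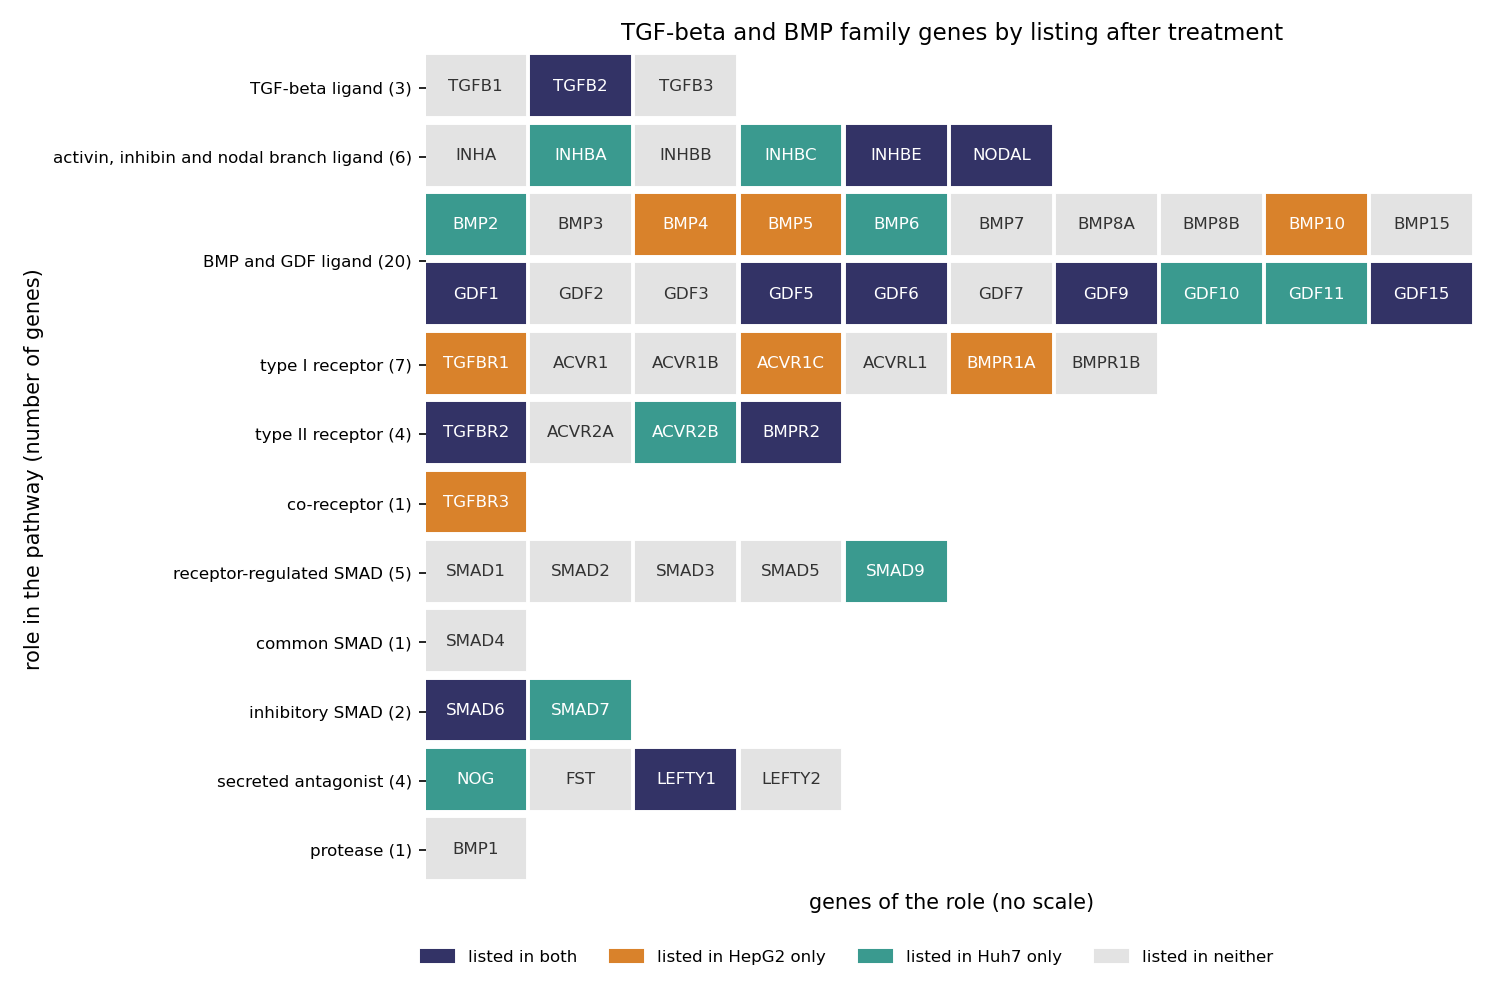
Each box is 1 of the 54 genes, placed in the row of its role, and its colour gives the cell lines in which it was listed as differentially expressed after SDT. Positions along a row have no scale. The 5 signal-carrying SMADs SMAD1 to SMAD5 are in neither list, and the 3 listed type I receptors are in that of HepG2 only.

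Of the TGF-beta ligands, TGFB2 (ENSG00000092969) was listed in both cell lines, and TGFB1 (ENSG00000105329) and TGFB3 (ENSG00000119699) in neither. The TGF-beta ligands are secreted in a latent form and act on growth, matrix and immune cells. The activin, inhibin and nodal ligands are a larger group of 6 genes. INHBE (ENSG00000139269), an activin subunit made mainly in the liver, and NODAL (ENSG00000156574), a morphogen of the early embryo, were listed in both. INHBA (ENSG00000122641) and INHBC (ENSG00000175189), which encode further activin subunits, were listed in Huh7 only. INHA, the inhibin alpha subunit, and INHBB were in neither list. This branch therefore had 2 of 6 genes listed in HepG2 and 4 of 6 in Huh7.

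The BMP and GDF ligands formed the largest group, with 8 of 20 listed in HepG2 and 9 of 20 in Huh7. The 5 of them listed in both cell lines were GDF1, GDF5, GDF6, GDF9 and GDF15. GDF5 and GDF6 act in joint and skeletal patterning, GDF9 in the ovary, and GDF15 (ENSG00000130513) is a secreted cytokine of cell stress. GDF15 is counted in this group by its symbol, and receptor use was not part of the rule. BMP4, BMP5 and BMP10 were listed in HepG2 only. BMP2 (ENSG00000125845), BMP6 (ENSG00000153162), GDF10 and GDF11 were listed in Huh7 only. The 8 ligands of this group in neither list were BMP3, BMP7, BMP8A, BMP8B, BMP15, GDF2, GDF3 and GDF7. Taking all ligands of the family, 11 of 29 were listed in HepG2 (37.9%) and 14 of 29 in Huh7 (48.3%), and 8 were listed in both. Of all protein-coding genes, 23.9% were listed in HepG2, 21.9% in Huh7 and 11.4% in both. The differences from these shares were not tested.

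In HepG2 3 of 7 type I receptors were listed, which were TGFBR1 (ENSG00000106799), the receptor of TGF-beta, ACVR1C (ENSG00000123612), a receptor of nodal and activins, and BMPR1A (ENSG00000107779), a receptor of BMPs. In Huh7 0 of 7 were listed. At a background of 23.9% and 21.9%, counts in a set of this size say little by themselves. ACVR1, ACVR1B, ACVRL1 and BMPR1B were in neither list. Of the type II receptors, TGFBR2 (ENSG00000163513) and BMPR2 (ENSG00000204217) were listed in both cell lines, ACVR2B (ENSG00000114739) in Huh7 only, and ACVR2A in neither. The co-receptor TGFBR3 (ENSG00000069702), also called betaglycan, which presents TGF-beta to its receptors, was listed in HepG2 only. HepG2 thus had both signalling receptors of TGF-beta listed together with the co-receptor, and Huh7 had the type II receptor alone. The difference between the cell lines was not tested.

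Of the inhibitory SMADs, SMAD6 (ENSG00000137834) was listed in both cell lines and SMAD7 (ENSG00000101665) in Huh7 only. Of the 6 SMADs that carry the signal, 0 were listed in HepG2 and 1 in Huh7, which was SMAD9 (ENSG00000120693). SMAD1, SMAD2, SMAD3, SMAD5 and the common SMAD4 were in neither list. The background of 23.9% and 21.9% would correspond to few genes in a set of this size, so the count says little by itself.

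The inhibitory SMADs are shown by the DNA ahead of their start sites, because both were listed in at least 1 cell line and both are textbook targets of the pathway. Each sequence holds the 250 bases before a RefSeq start site on the strand of the gene, in GRCh38.p14. The genome build of the files is not given in the sources used here, and no value was placed on these positions. For SMAD6 it is chr15:66701986-66702235 on the plus strand, and its last 8 bases lie in the first exon of GENCODE release 29. For SMAD7 RefSeq gives 3 windows, and the one shown, the farthest upstream with at most 10 exon bases before the start, is chr18:48949334-48949583 on the minus strand. Capitals mark GTCTAGAC, the palindromic SMAD-binding motif, and GTCTG or its reverse complement CAGAC, a shorter SMAD motif. The long motif does not contain the short one, and both strands were searched.
SMAD6: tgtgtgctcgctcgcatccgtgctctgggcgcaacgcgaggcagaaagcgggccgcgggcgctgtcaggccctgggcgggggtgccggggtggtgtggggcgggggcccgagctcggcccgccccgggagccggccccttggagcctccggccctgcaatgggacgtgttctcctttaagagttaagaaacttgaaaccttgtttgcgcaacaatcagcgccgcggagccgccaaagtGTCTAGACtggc
SMAD7: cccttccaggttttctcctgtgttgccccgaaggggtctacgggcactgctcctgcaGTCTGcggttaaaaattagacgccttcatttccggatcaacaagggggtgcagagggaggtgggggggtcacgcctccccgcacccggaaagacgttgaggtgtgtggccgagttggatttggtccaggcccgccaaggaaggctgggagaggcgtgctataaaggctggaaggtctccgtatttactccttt

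GTCTAGAC in SMAD6 lies at positions 12 to 5 before the RefSeq start site. It was found in 71 of 35116 RefSeq windows of 300 bases (250 before and 50 after a start site), or 0.202%. Of the 44 family genes with a window, SMAD6 was the only one that held it there. DNA outside the windows was not searched, for SMAD7 or any other member. The short motif was found on either strand in 45.3% of all windows. It was held by 12 of the 24 listed family genes with a window and by 10 of the 20 others. A motif is a match of letters and not a measured binding site.

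Of the secreted antagonists in the family, LEFTY1 (ENSG00000243709), which blocks nodal, was listed in both cell lines. NOG (ENSG00000183691), which encodes noggin and binds BMPs, was listed in Huh7 only. FST, which encodes the activin-binding follistatin, and LEFTY2 were in neither list. BMP1, which matches the symbol rule but encodes a protease that processes collagen and BMP antagonists, was also in neither.

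The other genes of the pathway were taken from lists that are not part of the family. Of these lists, textbook target genes had the highest share, 13 of 20 in HepG2 (65%) and 16 of 20 in Huh7 (80%), with 12 in both. The background was 23.9% and 21.9%. The lists were chosen with earlier results of these data known, so the difference from the background is a description and not independent support. The 12 shared targets included CDKN1A and CDKN2B, inhibitors of cyclin-dependent kinases, CTGF, a matrix protein, SNAI1, a repressor of epithelial genes, and JUNB. The ID genes encode inhibitors of helix-loop-helix factors and are direct targets of BMP signalling. ID2 and ID3 were listed in both cell lines, and ID1 and ID4 in Huh7 only. HAMP, which encodes hepcidin, was listed in Huh7, as was BMP6, a ligand that induces it. COL1A1, COL1A2 and SNAI2 were in neither list. Many of these targets answer to other pathways as well, and the tables do not give the direction of any of them.

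**Figure D2:**
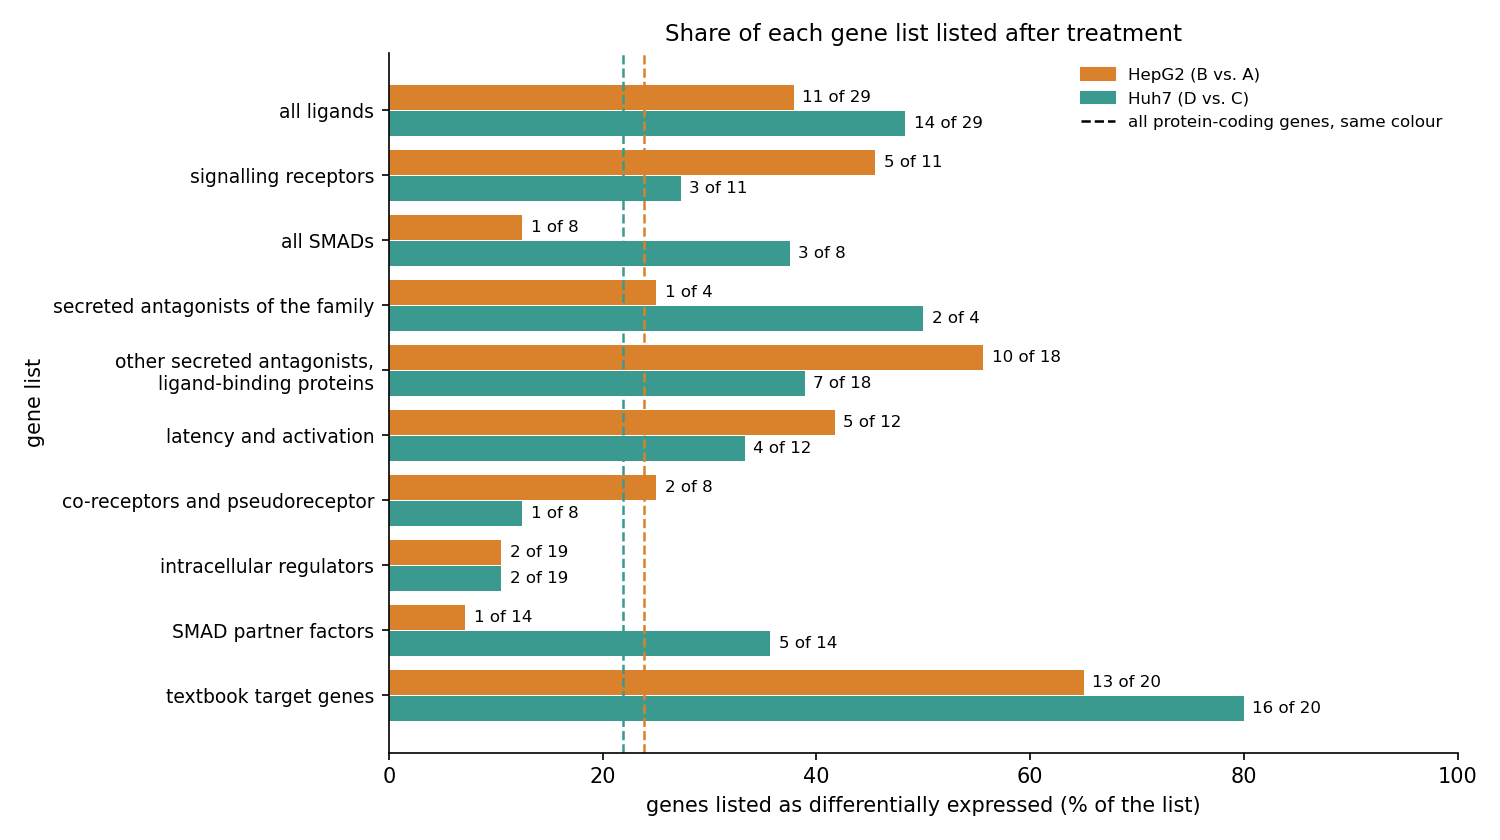
Bars give the percentage of the genes of each list that were listed as differentially expressed in HepG2 (orange) and Huh7 (green) cells, with the numbers of genes beside them, and dashed lines give the share of all protein-coding genes (23.9% and 21.9%). Textbook targets reach 65% and 80%, and intracellular regulators stay at 10.5% in both. The lists were chosen with earlier results of these data known.

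The lists differed in where in the pathway their genes act. Of 18 further secreted antagonists and ligand-binding proteins, 10 were listed in HepG2 (55.6%) and 7 in Huh7 (38.9%). CRIM1, FSTL1, FSTL3, KCP and SOSTDC1 were listed in both, whereas GREM1 and BMPER were listed in Huh7 only and SOST and DCN were among those listed in HepG2 only. Of 12 genes on the list named latency and activation, 5 were listed in HepG2 and 4 in Huh7. Those in both cell lines were ITGB6, an integrin subunit that releases active TGF-beta, and LTBP2. Further, 2 of 19 intracellular regulators were listed in each cell line (10.5%), SKIL and TGIF2 in HepG2 and NEDD4L and SKOR1 in Huh7. SMURF1, SMURF2 and SKI, which restrain the receptors or SMADs, were in neither. Of 14 SMAD partner factors, 1 was listed in HepG2 (ZNF423) and 5 in Huh7 (ZNF423, MED15, RUNX1, RUNX3 and ZEB2). Of 8 further co-receptors, NEO1 and RGMA were listed in HepG2 and HJV in Huh7. The share of all protein-coding genes was 23.9% in HepG2 and 21.9% in Huh7, and counts in lists of this size say little by themselves. These contrasts between lists were not tested.

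The KEGG TGF-beta signaling pathway gave the same numbers in both comparisons, 24 listed genes of 80 background genes (30%), of which 12 were shared. Summed over all pathways, 26.3% of the background entries were listed in HepG2 and 25.8% in Huh7. Of the 24 listed genes, 14 belonged to the family in HepG2 and 17 in Huh7. The 3 shared genes from outside the family were CDKN2B, ID2 and ID3. MYC, DCN, LTBP1 and AMHR2 were listed in this pathway in HepG2 only, together with the loci AC005702.1, AC104109.3 and AL117348.2. THBS1, ID1, ID4 and AMH were listed in it in Huh7 only. The other pathways with the most listed members were the same in both cell lines: Hippo signaling pathway, Cytokine-cytokine receptor interaction, Signaling pathways regulating pluripotency of stem cells, and Endocytosis. In Cytokine-cytokine receptor interaction, 78 of 265 genes were listed in HepG2 and 93 in Huh7, with 7 and 9 family members among them. Hippo signaling pathway held 9 listed members in HepG2 and 8 in Huh7, among 46 and 44 listed genes of 154.

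The GO terms were then compared, each as the listed genes over the background genes under it. The term BMP signaling pathway held 50 listed genes of 156 in HepG2 (32.1%) and 46 in Huh7 (29.5%), of which 24 were shared. Transforming growth factor beta receptor signaling pathway held 55 of 199 (27.6%) and 50 (25.1%), with 31 shared. The whole GO background was listed at 21.6% and 19.7%. Across the 43 terms that name TGF-beta, BMP, SMAD, activin or nodal and have at least 10 background genes, the median was 30% in HepG2 and 25.4% in Huh7. The medians over all terms of that size were 25.4% and 23.1%. The 43 terms share genes and include close duplicates, and 1 of them, paranodal junction, was matched by letters and does not concern nodal.

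**Figure D3:**
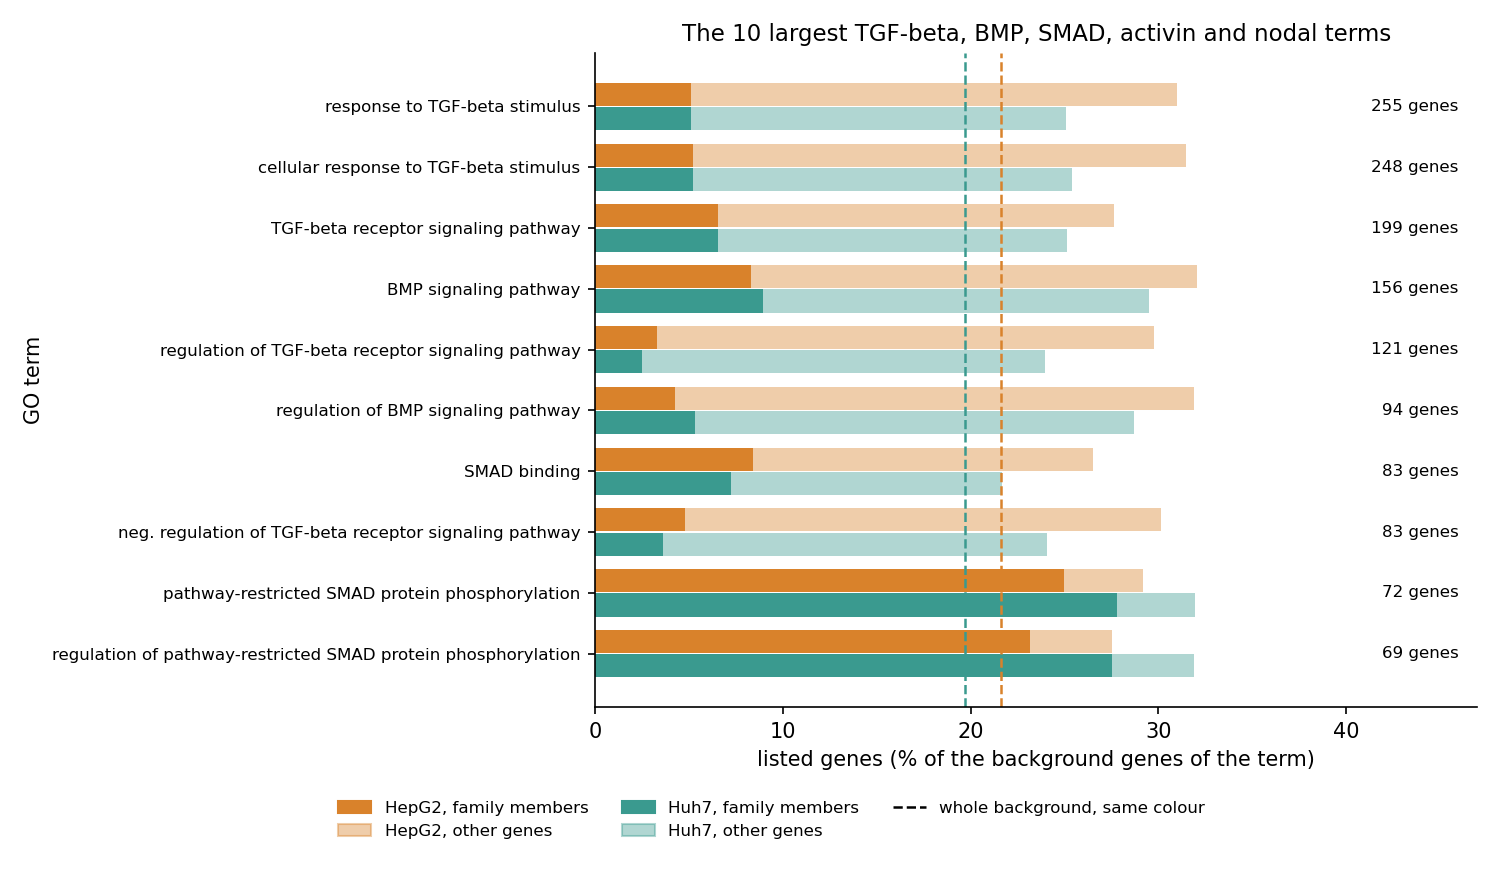
Bars give listed genes as a percentage of the background genes of each of the 10 largest GO terms of the pathway in HepG2 (orange) and Huh7 (green) cells, with family members in the dark part, and dashed lines give the whole background (21.6% and 19.7%). In both SMAD phosphorylation terms the dark part makes up most of the bar.

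The broadest GO terms were left out when terms were ranked by family members. Of the rest, transmembrane receptor protein serine/threonine kinase signaling pathway held the most. In HepG2 it held all 19 listed members among 105 listed genes of 358, and in Huh7 all 22 among 94. The family belongs to this term by annotation, so the full count is not a finding about the treatment. The number of GO terms over a listed member ranged from 101 for INHBC and INHBE to 928 for BMP4, and TGFB2 stood in the most KEGG pathways, 27.

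The terms differed in how far they rested on the family itself. Under pathway-restricted SMAD protein phosphorylation, 18 of the 21 listed genes in HepG2 and 20 of the 23 in Huh7 were family members. Under response to transforming growth factor beta stimulus, family members made up 13 of 79 listed genes in HepG2 and 13 of 64 in Huh7. Negative regulation of transforming growth factor beta receptor signaling pathway held 25 of 83 genes (30.1%) and 20 (24.1%), with 4 and 3 members. SMAD binding had the lowest share of the 10 largest terms in both cell lines, 26.5% and 21.7%.

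Transcript length and shared sequence were set beside the listing, and their part in it was not tested. The longest transcript of the members listed in HepG2 had a median of 3701 bases, and that of the other members 4013. In Huh7 the medians were 3190 and 4067. Among all protein-coding genes the listed genes were longer than the others, with medians of 3332 and 3101 bases in HepG2 and 3270 and 3114 in Huh7. Reads may also be shared between genes. GDF1 had 0 of 2443 stretches of 75 bases that no other gene holds, and all of them occur in transcripts of CERS1, a ceramide synthase gene that was listed in Huh7 only. LEFTY1 had 55.3% unique stretches, and shared most of the rest with AL117348.2, a locus listed in HepG2. TGFB2 had 75.2% and shared the rest with the noncoding gene TGFB2-OT1. BMP8A had 70.8% and shared the rest with BMP8B. How the authors' counting assigned such reads is not given in the sources used here, so the calls of GDF1, LEFTY1, TGFB2 and BMP8A are uncertain.

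**Figure D4:**
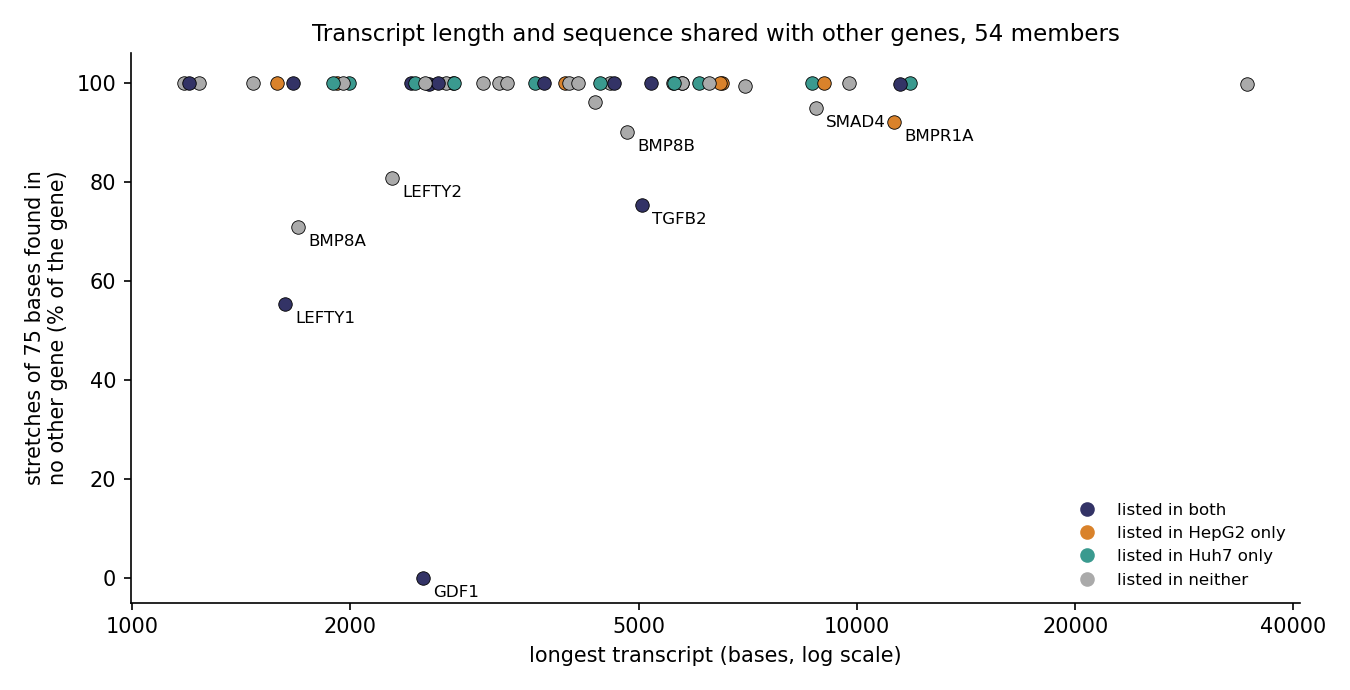
Each point is 1 of the 54 genes, with the length of its longest transcript in bases on a log axis and the percentage of its stretches of 75 bases that occur in no other gene, coloured by listing. GDF1 sits at 0, LEFTY1 at 55.3%, BMP8A at 70.8% and TGFB2 at 75.2%, and most other genes lie near the top.

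Of the 5 pairs of adjacent family genes, INHBC and INHBE on chromosome 12 were the only pair with both genes listed in the same cell line, Huh7. The share over all adjacent protein-coding pairs was not computed, so this count says little by itself. SMAD6 was listed and its neighbour SMAD3 was not, and ACVR1C was listed in HepG2 without its neighbour ACVR1.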

How the data were processed

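The authors sequenced rRNA-depleted total RNA of 4 groups with 1 library each, computed FPKM values, took mRNAs with adjusted p-values below 0.05 as differentially expressed (Cuffdiff 2.1.1 in the methods, edgeR in the results text) and tested GO terms with GOseq and KEGG pathways with KOBAS. The submitters' processing notes also name HISAT2, StringTie 1.3.1 and Bowtie2 2.2.8. The genome build and annotation are not given in the sources used here. The deposited tables hold, per term or pathway, numbers of listed and background genes, gene identifiers and the authors' enrichment p-values, which were not used. Their other numbers are gene numbers, deposited by the authors, and not reads, so depth and precision per library are unknown.

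From these, all identifiers under any GO term were joined per comparison, giving 4783 and 4369 genes, which equals the list sizes in the tables. Symbols, gene type and transcript length came from GENCODE release 29 by Ensembl identifier (4768 and 4360 protein-coding genes; the other 15 and 9 were left out). Promoter windows came from RefSeq (GRCh38.p14) and matched 44 of the 54 members. Every member is named; further genes come from 7 lists by role in the pathway, and GO terms are those with at least 10 background genes whose name holds TGF-beta, BMP, SMAD, activin or nodal, the 10 largest of which are named. Members and lists were chosen with earlier results of these data known. No test was made. The scripts (Python 3.11.15) were tested on simulated tables.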

Additional observations from a re-analysis of the deposited data

How the results depend on the processing

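With 1 library per group and gene lists in place of levels, no replicate could be left out, no pseudocount or filter on reads applies, and the depth behind a call is unknown. No paired analysis was possible because each group has 1 library and the results come from no test. The number of listed members ranged from 15 to 20 in HepG2, from 18 to 23 in Huh7 and from 9 to 12 for both, over the alternatives run: the KEGG table alone or added to the GO table, without BMP1, without BMP8A, BMP8B, LEFTY1 and LEFTY2, with AMH, AMHR2 and MSTN, and, chosen after seeing the data, without the 4 members that share over 20% of their stretches. The KEGG table lacks BMP10, GDF1, GDF15 and TGFBR3 in HepG2 and GDF1, GDF10, GDF11 and GDF15 in Huh7. Without the textbook targets, also chosen after seeing the data, 21 other pathway genes of 74 were listed in HepG2 in place of 34 of 94. In Huh7 20 were listed in place of 36. These are 28.4% and 27%, against 23.9% and 21.9% of all protein-coding genes. Of the 74 genes, 8 were listed in both cell lines, as were 11.4% of all protein-coding genes. Pathway terms above the whole background numbered 35 of 43 in HepG2 and 36 in Huh7, against 67% and 65.5% of all terms of that size. With at least 30 background genes they were 20 and 21 of 21, against 70.5% and 67.3% of all terms of that size. The counts are lower since fewer terms remain, and the terms share genes. With listed members taken out of each term they were 21 and 23 of 43. That last setting lowers the share of each term with a listed member by construction, because members that are not listed stay in the background. The 2 SMAD phosphorylation terms among the 10 largest terms then fell to between 5.56% and 6%, from between 27.5% and 31.9%. SMAD binding fell from 26.5% to 19.7% in HepG2 and from 21.7% to 15.6% in Huh7, below the whole background of 21.6% and 19.7%. Of 48 alternatives, 37 left the value within its margin, a factor of 1.5 for counts and a 95% interval over genes for shares. That interval treats the genes as independent draws and measures no uncertainty of the listing. Some of the alternatives could not move, because BMP1 was in neither list and adding the KEGG table brought in no further member. The tally is therefore no measure of robustness. The TGF-beta signaling pathway moved from 30% to 28.8% in HepG2 when only genes also under a GO term were counted, and stayed at 30% in Huh7.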

Other observations

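Among the smaller GO terms of the pathway, chosen here after their values were seen, BMP binding held 6 listed genes of 11 in each cell line, 4 of them shared, and 2 in each were family members. Positive regulation of transforming growth factor beta production held 9 listed genes of 19 in HepG2 (47.4%) and 10 in Huh7 (52.6%), with 6 shared and no family member among them. Transforming growth factor beta-activated receptor activity held 8 of 15 in HepG2 and 3 of 15 in Huh7. The whole GO background was listed at 21.6% in HepG2 and 19.7% in Huh7. Other small terms lay near or below it. Positive regulation of activin receptor signaling pathway stood at 7.14% and 14.3%, and SMAD protein complex assembly at 23.1% and 15.4%. None of these differences was tested.

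Of the 3 family genes that the symbol rule leaves out, 1 was listed in each cell line and none in both, where 11.4% of all protein-coding genes were listed in both. AMHR2, the receptor of anti-Müllerian hormone, was listed in HepG2 only, and AMH, its ligand, in Huh7 only. MSTN, which encodes myostatin, was in neither list.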
